A study of Mus musculus with 4 samples.

Results

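Acot1 and 9 other genes of fatty acid oxidation and its transcriptional control (Acot2, Cpt1a, Pdk4, Plin2, Acadl, Acadvl, Acadm, Hadha and Ppard) were followed in myeloid-derived suppressor cells (MDSCs) treated with epigallocatechin-3-gallate (EGCG), a green tea catechin. The 10 genes were taken by symbol from the 53465 genes of the count table, and each symbol matched 1 gene. The genes were selected on the counts of Acot1, which were about 2-fold higher with EGCG, so the fold changes of these genes are a description. Where it is said which of them passed a threshold, nothing is read from it. MDSCs are immature granulocytic and monocytic cells that accumulate in tumor-bearing hosts. They were isolated with beads against Gr-1 from the spleens of male BALB/c mice that had been injected at 6 weeks of age with 4T1, a mammary carcinoma line of this strain. Control replicates 1 and 2 were kept for 6 h in control medium, and EGCG replicates 1 and 2 for 6 h with EGCG at 5 μg/mL. Both groups came from tumor-bearing mice, so no cells of healthy mice and no second dose or time enter these values. The labels place the killing of the mice on day 21 after injection of 4T1 cells. The methods of the study give that day for the experiment with EGCG in drinking water, but 2 weeks for the mice used for cell sorting. Neither the labels nor the methods say whether the replicates of a group were separate mice or separate wells. Any test therefore measures only the spread between these libraries, which may be technical.

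Fatty acids are activated to acyl-CoA, carried into mitochondria by the carnitine shuttle and shortened in repeated cycles of dehydrogenation, hydration, dehydrogenation and thiolysis. Acyl-CoA thioesterases work against activation, releasing the free fatty acid and coenzyme A, and so influence how much acyl-CoA is present. The peroxisome proliferator-activated receptors (PPARs) are nuclear receptors that bind fatty acids and, as partners of the retinoid X receptors, activate many genes of this pathway through paired hexamer sites. Acot1, Acot2, Cpt1a, Pdk4 and Plin2 are textbook PPAR target genes in liver, muscle or heart, and Acot1 is among those that respond most to fasting in liver. In tumor-associated myeloid cells fatty acid oxidation has been studied as a source of energy.

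Acot1 encodes a cytosolic and Acot2 a mitochondrial acyl-CoA thioesterase that cleaves long-chain acyl-CoA. They stand beside each other on the forward strand of chromosome 12 (GRCm38, GENCODE M21). Acot1 (ENSMUSG00000072949) spans chr12:84009490-84018371, and Acot2 (ENSMUSG00000021226) spans chr12:83987861-83993873 (start at -21629 relative to that of Acot1). Each has 3 coding exons, of 1257 bases in Acot1 and 1359 bases in Acot2. Of 1236 aligned coding bases, 1178 (95.3%) were identical. Identity is not even along the coding sequence, which decides where a read can be assigned to 1 gene. The longest identical run covered 273 bases, and runs of at least 100 identical bases made up 656 bases. The next pair of lines gives the first 150 bases of that run, at chr12:84017006-84017155 in exon 3 of Acot1 and chr12:83992728-83992877 in exon 3 of Acot2, forward strand. A read lying wholly within it carries no base that separates both genes.
Acot1 shared coding: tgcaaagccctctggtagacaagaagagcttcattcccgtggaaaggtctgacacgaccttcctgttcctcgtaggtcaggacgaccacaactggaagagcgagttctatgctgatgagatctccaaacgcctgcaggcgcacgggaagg
Acot2 shared coding: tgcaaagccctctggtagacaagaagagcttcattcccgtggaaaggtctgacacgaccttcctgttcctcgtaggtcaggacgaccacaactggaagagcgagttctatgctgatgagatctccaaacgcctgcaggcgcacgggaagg

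The 90 coding bases just before that run, at chr12:84016916-84017005 in Acot1 and chr12:83992638-83992727 in Acot2, held the most differences of any window of this length. They are shown because reads over them separate the genes. Capitals mark the 14 bases at which the genes differ.
Acot1 variable coding: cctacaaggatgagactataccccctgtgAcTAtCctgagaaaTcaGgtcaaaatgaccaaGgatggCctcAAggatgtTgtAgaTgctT
Acot2 variable coding: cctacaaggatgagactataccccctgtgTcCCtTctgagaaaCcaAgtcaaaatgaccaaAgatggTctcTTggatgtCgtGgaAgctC

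The promoter windows from RefSeq (GRCm38.p6, forward strand), which end at or close to the gene start, are given here from chr12:84009252-84009501 for Acot1 and chr12:83987611-83987860 for Acot2. They are printed because Acot1 and Acot2 are known PPAR targets and their reads were higher with EGCG. GC content was 48.8% in the Acot1 window and 50.4% in the Acot2 window. No base is in capitals, since neither window held the hexamer AGGTCA on either strand.
Acot1 promoter: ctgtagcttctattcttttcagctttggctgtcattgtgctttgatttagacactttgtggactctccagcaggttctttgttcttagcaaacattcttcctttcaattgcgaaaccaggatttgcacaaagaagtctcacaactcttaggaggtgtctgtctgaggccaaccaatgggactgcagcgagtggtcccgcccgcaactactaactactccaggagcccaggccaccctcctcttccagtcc
Acot2 promoter: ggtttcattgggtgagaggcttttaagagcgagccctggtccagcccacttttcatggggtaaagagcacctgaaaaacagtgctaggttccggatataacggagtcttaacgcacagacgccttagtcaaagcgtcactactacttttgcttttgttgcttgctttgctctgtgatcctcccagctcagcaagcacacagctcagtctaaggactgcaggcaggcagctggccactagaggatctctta

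The hexamer AGGTCA, searched on both strands, was found in the promoter windows of 4 of the 10 genes (Cpt1a, Plin2, Acadvl and Acadm) and in 5340 of 32851 promoters of the reference (16.3%). The DR1 element (AGGTCA in direct repeat with a single base of any kind, N, between the copies), which contains the hexamer, was found in 13 promoters (0.0396%) and in 0 of the 10. The windows searched extended further downstream than the stretches printed above. A match is a run of letters and not a bound site, and sites outside these short windows were not searched.

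The data were read counts per gene, with totals of 17767318 and 17973695 in control replicates 1 and 2 and of 18390385 and 18091684 in EGCG replicates 1 and 2. After genes with few reads were left out, 14682 genes were tested. Of these, 2 were higher (0.0136%) and 20 lower (0.136%) in the EGCG treatment group, 22 in all (0.15%), at a Benjamini-Hochberg adjusted p under 0.05 in the quasi-likelihood test of edgeR. These counts depended on the processing, with 16 higher and 135 lower when scaled by library size only, 14 and 50 in DESeq2, and 1 lower with length correction. With 1 library left out they ran from 5 to 119 higher and from 72 to 235 lower. By an unadjusted p under 0.05, 12.2% of the tested genes stood out. In 21.5% of them both EGCG libraries lay above both control libraries, and in 21.2% both lay below. The root mean square log2 difference was 0.342 to 0.386 between libraries of different groups and 0.318 and 0.343 within a group, so the ranges overlapped. The defining granulocytic markers (S100a8, S100a9, Ly6g and others) summed to 66625 to 78450 CPM (counts per 1000000 reads of the scaled library) in the control and 77952 to 87426 in the EGCG libraries, and all 14 were tested. Monocytic markers summed to 3194 and 3009 CPM in the control and to 2703 and 2916 CPM with EGCG, without overlap. The 8 epithelial markers, which 4T1 cells may carry, summed to 27.99 and 25.63 CPM in the control and 24.21 and 26.76 CPM with EGCG. Of these, 4 were tested and the other 4 (Krt8, Krt14, Krt19 and Elf3) had 3 counts or fewer in every library.

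Acot1 reads were about 2-fold as many in the EGCG treatment group. It had 53 and 52 counts in control replicates 1 and 2, and 109 and 101 in EGCG replicates 1 and 2. The exact Poisson 95% intervals, which cover counting error only, were 39.7 to 69.3 and 38.8 to 68.2 for the controls and 89.5 to 131.5 and 82.3 to 122.7 with EGCG. Both EGCG libraries lay above both controls. In CPM of the scaled libraries, the level was 2.91 ± 0.0052 (SD, n = 2) in the control and 5.83 ± 0.252 (SD, n = 2) in the EGCG treatment group. The log2 fold change was 1.00 (SE 0.20, 95% interval 0.57 to 1.44). Acot1 ranked 53 of the 14682 tested genes by log2 fold change, and 10 of the 13626 genes with at least 10 counts in every library. It did not pass the threshold over all tested genes. In bulk RNA, more cells that carry a transcript and more RNA per cell cannot be told apart.

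Acot2 was also higher in both EGCG libraries, by less. It had 99 counts in each control library, and 130 and 125 with EGCG. The EGCG libraries lay above the controls, but the Poisson intervals (80.5 to 120.5 for each control, 108.6 to 154.4 and 104.0 to 148.9 with EGCG) overlapped. The mean was 5.48 ± 0.0836 CPM in the control and 7.08 ± 0.121 CPM with EGCG (SD, n = 2 each), a log2 fold change of 0.37 (SE 0.17, 95% interval 0.00055 to 0.74), and did not pass the threshold. Acot1 held 34.9% (exact Clopper-Pearson 95% interval 27.3 to 43.0) and 34.4% (26.9 to 42.6) of the summed Acot1 and Acot2 reads in control replicates 1 and 2. With EGCG its share was 45.6% (39.2 to 52.2) in replicate 1 and 44.7% (38.1 to 51.4) in replicate 2. Both shares were higher with EGCG, and the intervals of the groups overlapped. The summed level of the pair was 8.32 and 8.45 CPM in the control and 13.2 and 12.7 CPM in the EGCG libraries, with no overlap. This sum does not depend on how counted reads are split between the genes. It includes Acot1, on which the genes were chosen, so it is a description only. Reads assigned to neither gene would be missing from it. Of the 31-base words of the Acot1 transcripts, 22.8% also occurred in other genes, most of them in Acot2, and for Acot2 the share was 37.8%. The division of reads between these genes therefore carries an uncertainty that the counting intervals leave out.

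**Figure D1:**
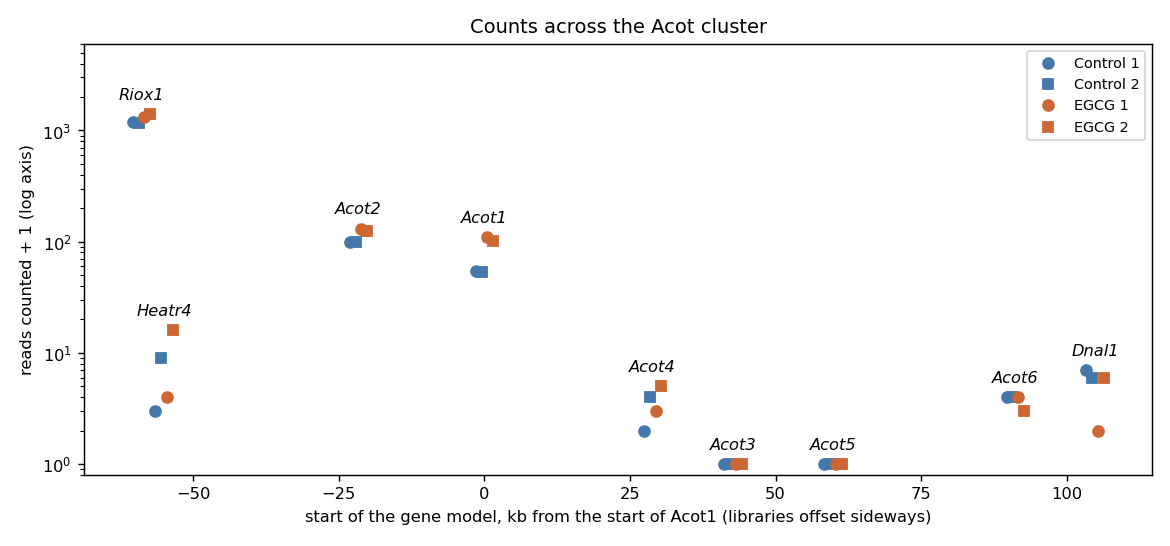
Counts plus 1 (log axis) of the Acot genes of chromosome 12 and their neighbours in each of the 4 libraries, against the start of each gene in kb from the start of Acot1. Acot1 reached 109 and 101 counts with EGCG against 53 and 52 in the control, whereas Acot3, Acot4, Acot5 and Acot6 lay between 0 and 4 counts in every library.

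The rest of the thioesterase cluster was close to silent in these cells. Acot4, a peroxisomal enzyme, had 1 and 3 counts in the control and 2 and 4 with EGCG, and Acot6 had 3 and 3 against 3 and 2. Acot3 and Acot5 had 0 counts in all 4 libraries, which allows up to 3 counts in each. These values give no direction for the 4 genes. Of the neighbours that are no thioesterases and had more counts than Acot2, Riox1 had 1196 and 1176 counts in the control and 1331 and 1407 with EGCG. Elmsan1 had 2112 and 1999 against 1665 and 1876, and Numb 2839 and 2804 against 2952 and 3039. The antisense gene Gm26571 had 147 and 174 against 186 and 173, with overlap.

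Cpt1a and Pdk4, which act on the choice between fat and glucose as fuel, were not higher in both EGCG libraries. Cpt1a, the outer membrane carnitine palmitoyltransferase that controls entry of long-chain acyl groups, had 86.0 and 77.2 CPM in the control and 79.0 and 83.5 CPM with EGCG. The EGCG values lay between those of the control, and the log2 fold change was -0.0064 (SE 0.08, 95% interval -0.18 to 0.17). Pdk4, the pyruvate dehydrogenase kinase that spares glucose when fat is burned, had 8 and 6 counts in the control and 5 and 5 with EGCG. It was too low for the test, its Poisson intervals overlapped (3.45 to 15.8 and 2.20 to 13.1 against 1.62 to 11.7 in each EGCG library), and a difference was not detectable at this depth.

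The 4 enzymes of the mitochondrial cycle had levels within 0.18 log2 units of the control. Acadvl, the very long-chain acyl-CoA dehydrogenase, had 26.9 and 24.8 CPM in the control and 27.2 and 25.4 CPM with EGCG (log2 fold change 0.02, SE 0.10). Acadl, the long-chain enzyme, had 47.6 and 50.5 against 48.8 and 57.3 CPM (0.11, SE 0.10). For both genes the groups overlapped. Acadm, the medium-chain enzyme, had 41.6 CPM in each control library and 43.1 and 50.8 CPM with EGCG (0.18, SE 0.10, 95% interval -0.03 to 0.38). Its groups did not overlap, but the EGCG libraries differed from each other by more than replicate 1 did from the controls. Hadha, the alpha subunit of the trifunctional protein that carries out the last steps for long chains, had 106.6 and 116.3 CPM in the control and 106.4 and 111.0 CPM with EGCG (-0.04, SE 0.08), and the groups overlapped. The intervals of Acadvl (-0.20 to 0.24), Acadl (-0.09 to 0.32) and Hadha (-0.20 to 0.13) all included 0.

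Plin2 and Ppard, a lipid droplet coat protein that is a common readout of PPAR activity and the receptor PPAR delta itself, were at or below the control level. Plin2 had 243.5 and 234.8 CPM in the control and 213.6 and 233.5 CPM with EGCG. Both EGCG libraries lay below the controls, replicate 2 by a small margin, and the log2 fold change was -0.10 (SE 0.08, 95% interval -0.26 to 0.07). Ppard had 32.8 and 37.8 CPM in the control and 29.8 and 34.4 CPM with EGCG, with overlap, and a log2 fold change of -0.14 (SE 0.11, 95% interval -0.37 to 0.09).

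**Figure D2:**
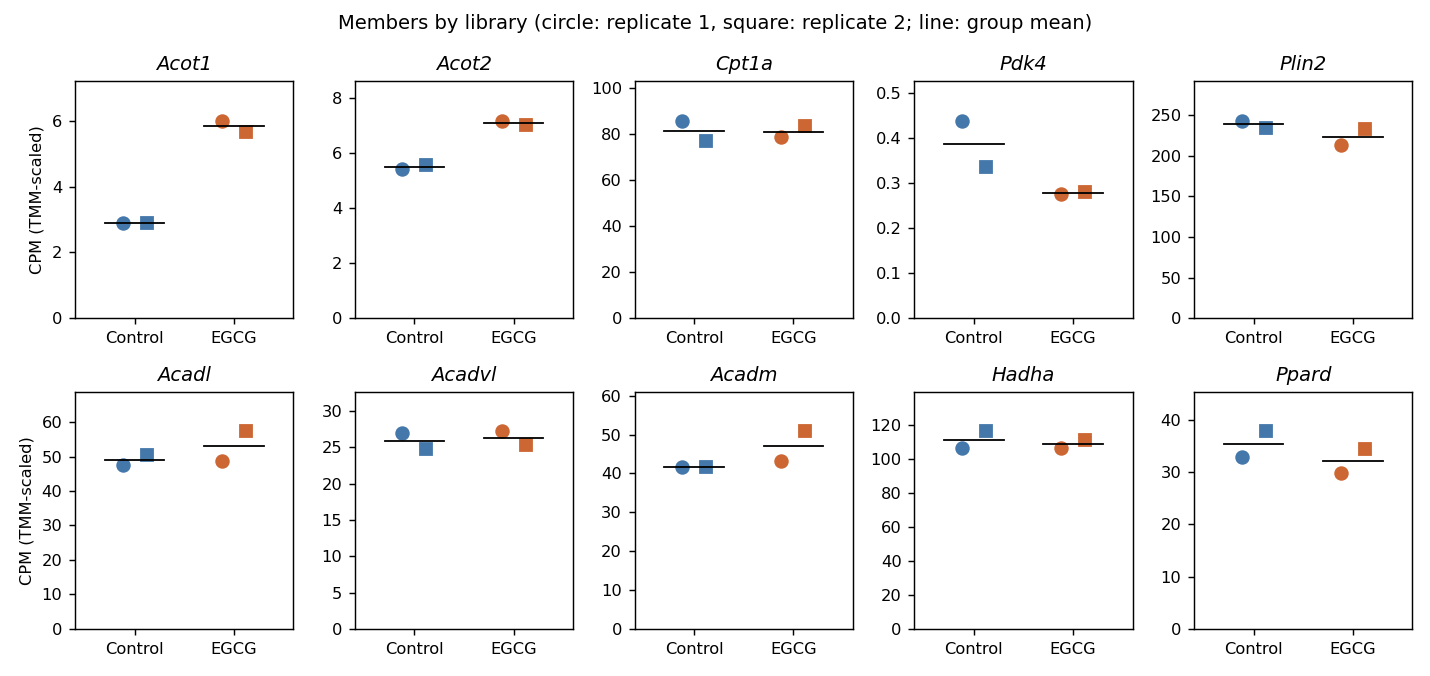
Level of each of the 10 genes in each library in CPM of the TMM-scaled counts, with circles for replicate 1, squares for replicate 2 and lines at group means. Acot1 shows a wide gap between groups for its level (2.90 and 2.91 against 6.01 and 5.65 CPM), whereas points of both groups mix for Cpt1a, Acadl, Acadvl, Hadha and Ppard.

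Of the 10 genes, 9 passed the filter on low counts, and 0 of these 9 passed the threshold (0.15% of all tested genes did) in edgeR's quasi-likelihood test. DESeq2 called 0, with no adjusted p given for Acot1. The EGCG libraries lay above the controls in 3 of the 9 (Acot1, Acot2 and Acadm; 21.5% of all tested genes) and below in 1 (Plin2; 21.2%). The log2 fold change was above 0 in 5 and below 0 in 4, with a median of 0.02, beside 0.0031 over all tested genes, of which 50.6% were higher. The median of these genes was -0.012 with library size only, 0.0796 with length correction and -0.0069 to 0.0789 with a library left out. Since the rule used this contrast, nothing is read from these counts or medians.

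**Figure D3:**
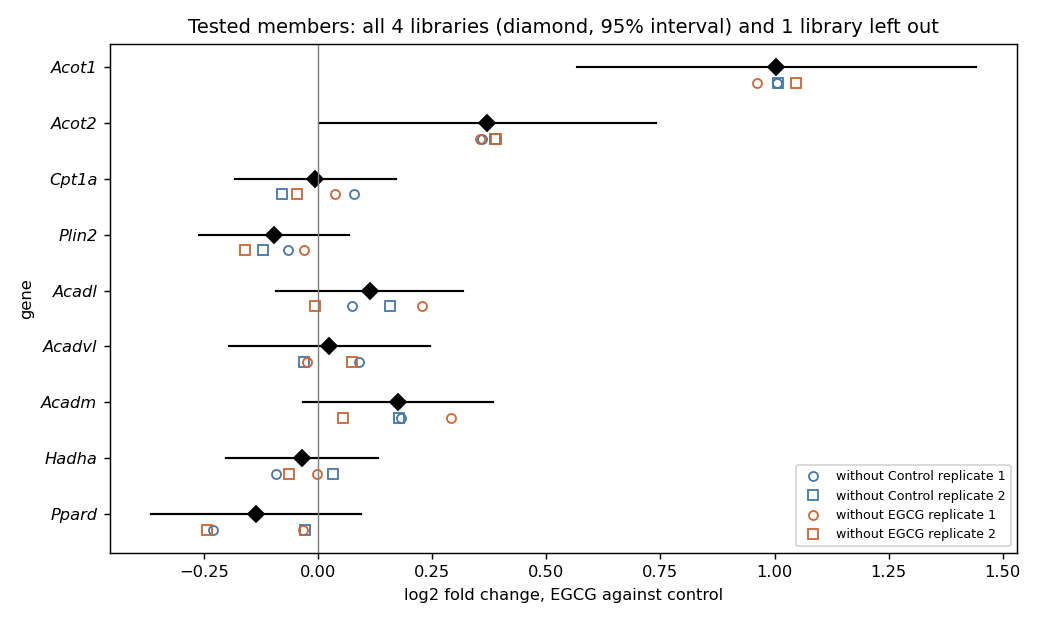
Log2 fold change of EGCG against control for the 9 genes that were tested, with 95% intervals from the edgeR fit. Acot1 stands at 1.00 (0.57 to 1.44) and Acot2 at 0.37 with its lower limit at 0.00055, and the intervals of the other 7 genes include 0.

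Levels, which the choice of genes did not use, were compared per kilobase of exon (RPKM, mean over the 4 libraries). Plin2 was highest at 65.9 ± 3.60 RPKM (SD, n = 4), followed by Acadl at 25.5 ± 2.16, Hadha at 12.6 ± 0.536, Acadm at 11.3 ± 1.13, Cpt1a at 10.7 ± 0.533 and Acadvl at 9.70 ± 0.433. Ppard was at 4.48 ± 0.443, Acot2 at 2.86 ± 0.423, Acot1 at 1.12 ± 0.433 and Pdk4 at 0.0947 ± 0.0215 RPKM. The ranges over the libraries overlapped between Hadha and Acadm, Acadm and Cpt1a, and Cpt1a and Acadvl, so the order of these neighbours is not settled. All other neighbours were separate. The gene with the largest fold change was thus next to last in level. Reads that fit both Acot1 and Acot2 may have been left uncounted, which would understate their levels. The order of Acadl and Hadha was the reverse when the longest transcript was taken as gene length (26.7 and 27.4 RPKM).

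Within gene families these levels show which isoform the cells used. Cpt1a made up 99.3% of the summed RPKM of the CPT1 genes, and Cpt1b, the muscle form, had 4 and 3 counts in the control and 5 and 5 with EGCG. Pdk4 was 0.628% of the pyruvate dehydrogenase kinases, of which Pdk3 was 86.1%. Plin2 was 58.6% of the perilipins, with Plin3 at 45.2 RPKM and Plin1, the adipocyte form, at 0 counts. Ppard was 61.0% of the PPAR receptors. Pparg was at 2.86 RPKM (203 and 119 counts in the control, 115 and 172 with EGCG, with overlap), whereas Ppara, the receptor that governs the fasting response of Acot1 in liver, had 0 and 2 counts in the control and 1 and 0 with EGCG. Among thioesterases, Acot9, Acot7 (19.2 RPKM), Acot8 (12.3) and Acot13 (10.0) all stood above Acot2 and Acot1. Hadhb, the beta subunit that pairs with Hadha, was at 1.06 RPKM beside 12.6 for Hadha, but 23.7% of its 31-base words also occurred in other genes, chiefly in Gm13910 (19.5%), which itself had 480 to 526 counts.

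**Figure D4:**
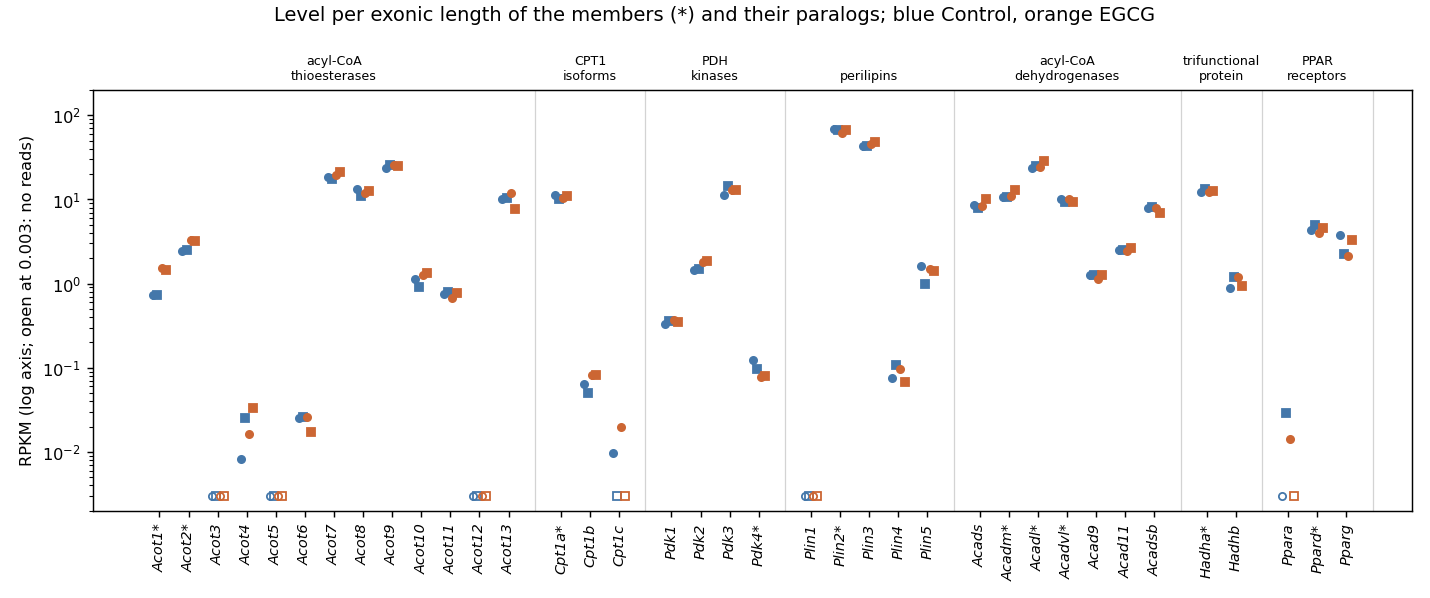
Level in each library, in RPKM on a log axis, of the 10 genes (marked with *) and the other members of their families, with blue control and orange EGCG points, circles for replicate 1, squares for replicate 2 and open points for no reads. Cpt1a, Pdk3 and Ppard lead the CPT1, pyruvate dehydrogenase kinase and PPAR families, and Acot1 (mean 1.12 RPKM) lies below Acot7, Acot8, Acot9 and Acot13.

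Since the counting ignored strand, reads in an overlap could be assigned to the wrong gene or left uncounted. Acadvl overlaps Dvl2 on the opposite strand over 1151 of its 2686 exonic bases, so its level is uncertain. Dvl2 had 693 and 679 counts in the control and 710 and 704 with EGCG (log2 fold change 0.05). Hadha shares 75 bases with Garem2, which had at most 2 counts. For Acadm, Plin2, Cpt1a, Pdk4, Hadha and Ppard between 0.608% and 6.45% of the 31-base words occurred in other genes, and for Acadl 0%.

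The genes whose pattern over the 4 libraries was most like that of Acot1 were sought among 11068 tested genes with a mean of at least 50 counts, by the Euclidean distance of centred log2 CPM. Chchd10, a mitochondrial intermembrane space protein, was nearest (distance 0.247), with 51 and 58 counts in the control and 95 and 98 with EGCG. The immunoglobulin kappa variable genes Igkv15-103 (distance 0.309; log2 fold change 0.79) and Igkv6-17 (0.315; 0.67) followed. With 4 libraries many genes share such a pattern by their group difference alone. B cell markers, whose cells express immunoglobulin genes, summed to 1959 and 2069 CPM in the control and 2209 and 2230 CPM with EGCG, 10.2% higher on average. T and NK cell markers were 9.68% higher (112 and 123 against 126 and 132 CPM, without overlap) and erythroid markers 8.93% higher (165 and 209 against 192 and 217 CPM, with overlap). The part of these lists in the result of Acot1 was not tested. Platelet markers were 13.6% lower and those of basophils, mast cells and eosinophils lower too (1288 and 1170 against 1142 and 996 CPM). Macrophage markers were 19.0% lower (403 and 396 against 313 and 334 CPM) and endothelial and stromal markers 20.0% lower (117 and 127 against 95.1 and 99.5 CPM, mostly Pecam1, with a median log2 fold change of -0.75), and their part was not tested either. Both EGCG libraries lay above the controls for 4 of 8 B cell markers and 4 of 14 granulocytic markers (21.5% of all tested genes), and below for 5 of 11 macrophage markers, 4 of 5 tested endothelial and stromal markers and 1 of 14 granulocytic markers (21.2%). Other lists went both ways. Above the controls were 1 and below them 3 of 10 monocytic markers, and 3 and 2 of 9 tested erythroid markers. Of 8 tested T and NK cell markers 2 lay above and 1 below. For basophils, mast cells and eosinophils 1 of 8 lay above and 3 below. Of 6 tested platelet markers 1 lay below, and of 4 tested epithelial markers 2 lay above and 1 below. Of the 83 tested markers in the 10 lists, 0 passed the threshold, beside 0.15% of all tested genes.

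The wider pathway was described with lists of genes written by hand. The list of mitochondrial beta-oxidation also held genes of propionyl-CoA and branched-chain amino acid breakdown, such as Pccb and Acadsb. Of its 26 tested genes, which leave out the members, 23 had a log2 fold change above 0 and 3 below. Their median was 0.05, and 0 passed the threshold in either direction. Over all tested genes the median was 0.0031, 50.6% were above 0 and 0.15% passed, shares that also stand beside the lists that follow. With 1 library left out the median of the mitochondrial list ran from 0.0096 to 0.0975. Eci1, which shifts double bonds, had 0.24 (SE 0.15) and Pccb, a propionyl-CoA carboxylase subunit, 0.19, whereas the dehydrogenases Acadsb and Acad9 had -0.09 each. Of 20 peroxisomal genes, 16 were above and 4 below 0 (median 0.05, or 0.015 with library size only), with 0 past the threshold. Hacl1, of alpha-oxidation, and Acaa1b, a thiolase, had 0.26 and 0.18, whereas Ehhadh, the bifunctional enzyme, had -0.45.

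Of 18 other thioesterases 10 were tested, 8 above and 2 below 0 (median 0.05), and 0 passed the threshold. The median was 0.011 with library size only and 0.0093 to 0.15 with a library left out. Them6 (0.40) and Acot10 (0.34) were highest and Acot11 (-0.11) and Acot13 (-0.05) lowest among those with at least 10 counts in every library, beside 1.00 for Acot1. With a library left out the sign turned for Them6 (-0.022 to 1.00) and Acot13 (-0.39 to 0.23), as it did for Acadsb, Pccb, Fabp4 and Fitm2 among the genes named from the other lists. In fatty acid activation and binding, 11 of 19 tested genes were above and 8 below 0, with 0 past the threshold. The median was 0.03, but -0.011 with library size only and -0.0016 to 0.041 with a library left out. Acsbg1, an acyl-CoA synthetase, which supplies the substrate of thioesterases, had 25 and 29 counts in the control and 49 and 56 with EGCG. Its groups were separate and its log2 fold change was 0.96 (SE 0.28), close to that of Acot1, but its adjusted p was 0.210 in edgeR's quasi-likelihood test. Acbd6, an acyl-CoA binding protein, had 0.12, and Slc27a1, a fatty acid transport protein, and Fabp4, a fatty acid binding protein, had -0.34 and -0.30.

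The list of PPAR receptors and cofactors held the 1 gene of all 8 lists that passed the threshold. Helz2, a helicase known as a PPAR coactivator and also as an interferon-stimulated gene, had 2935 and 3265 counts in the control and 2045 and 2035 with EGCG. It fell by 0.60 on the log2 scale (SE 0.08, adjusted p = 0.0153, edgeR's quasi-likelihood test), lower in both EGCG libraries, and DESeq2 called it too. It was put on the list with its call known, so its presence there is no evidence about the list. The call was lost without a filter on low counts (adjusted p = 0.525, log2 fold change -0.60) and with a correction for gene length (adjusted p = 0.0772, log2 fold change -0.47). Of the 19 tested genes of the list 15 were below and 4 above 0 (median -0.15), and in 11 both EGCG libraries lay below the controls (21.2% of all tested genes). The median was -0.026 with the length correction, and the other 18 genes did not pass the threshold. Ppargc1b, a coactivator of oxidative metabolism, had -0.43, Lpin1 0.22 and Tbl1xr1 0.15.

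Of 36 further genes listed as PPAR targets 24 were tested, 15 above and 9 below 0 (median 0.03, or -0.0065 with library size only). Of these, 0 passed the threshold. Not all on this list are established targets, and it also held Acaca, a gene of fatty acid synthesis. Tmem135 and Pdk2, another pyruvate dehydrogenase kinase, were highest at 0.32 each, and Slc25a42 and Acaca, the cytosolic acetyl-CoA carboxylase, lowest at -0.36 and -0.35. Angptl4, an inhibitor of lipoprotein lipase and a classical target, was scarce, with 9 and 9 counts in the control and 12 and 4 with EGCG. Of 20 lipid droplet and lipolysis genes 15 were above and 5 below 0 (median 0.05), with 0 past the threshold. This median was 0.019 with library size only and 0.017 to 0.10 with a library left out. Abhd5, the coactivator of adipose triglyceride lipase, had 0.17, Dgat1, an enzyme of triglyceride synthesis, 0.13, Fitm2 -0.11 and Ldah -0.06.

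Malonyl-CoA, made by the acetyl-CoA carboxylases, inhibits Cpt1a, and AMP-activated kinase restrains its synthesis. Of 12 tested genes of this control 9 were above and 3 below 0 (median 0.06, or 0.029 with library size only), and 0 passed the threshold. Acaca was counted among the PPAR targets and not here. Acacb, the mitochondrial carboxylase, had 41 and 37 counts in the control and 23 and 20 with EGCG, with no overlap. Its log2 fold change was -0.85 (SE 0.32) and its adjusted p 0.306 in edgeR's quasi-likelihood test. The kinase subunits Prkag2 (0.20) and Prkab2 (-0.11) and the partner Strada (0.13) differed less. Over the 8 lists, 11 of 150 tested genes (7.33%) had an unadjusted p under 0.05 in edgeR's test, beside 12.2% of all tested genes, and DESeq2 called 1, Helz2.

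**Figure D5:**
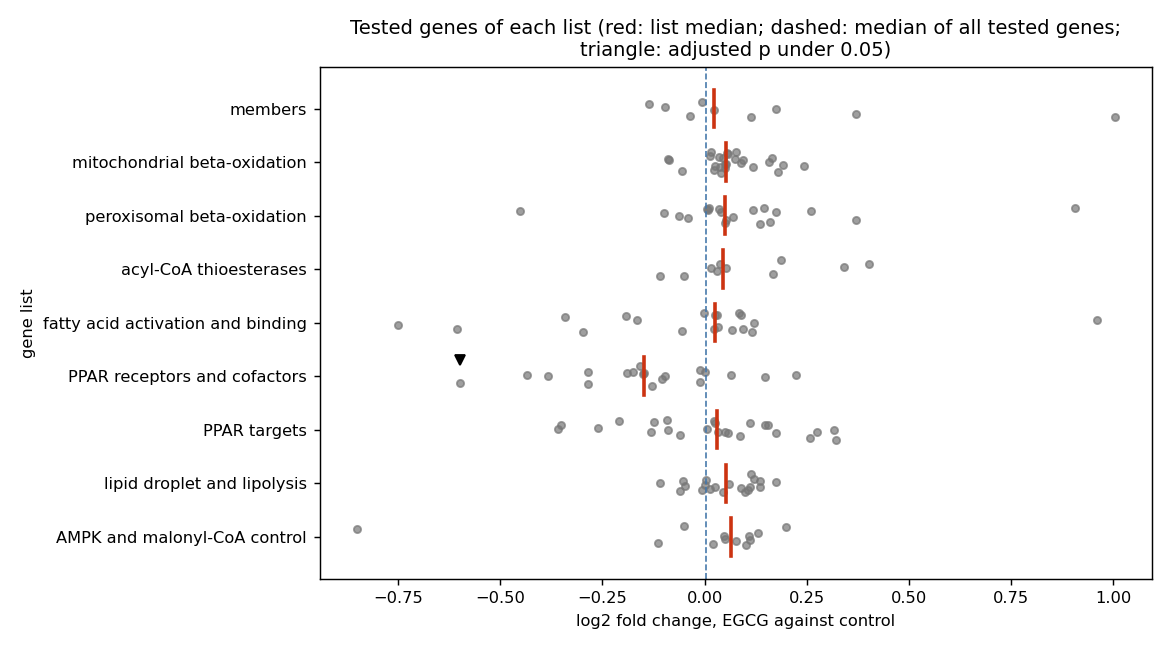
Log2 fold change of EGCG against control for each tested gene of the 10 members and of the 8 lists, with red lines at list medians, a dashed line at the median of all tested genes and a triangle over Helz2, which passed the threshold. Medians lie between 0.03 and 0.06 in 7 lists and at -0.15 for PPAR receptors and cofactors, and Acot1 (1.00) lies apart from the other members.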

How the data were processed

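MDSCs from the spleens of mice with 4T1 tumors were sequenced as 2 control and 2 EGCG libraries. The authors mapped reads with STAR 2.6.0c (GRCm38), counted them per gene with featureCounts 1.6.2 on the Ensembl annotation, without regard to strand, and deposited whole-number counts, which were not normalized. Per the labels, bcl2fastq 1.8.4 and FastQC were also used. The table had 0 columns of other samples. Groups were taken from the sample titles.

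Genes with few reads were removed with filterByExpr (minimum count 10), TMM scaling was applied, and both groups entered a fit over all 4 libraries in edgeR 4.0.16, with its legacy quasi-likelihood test and no block. P-values were adjusted by Benjamini-Hochberg over 14682 genes, with a threshold of 0.05. CPM and RPKM were computed from the scaled counts, RPKM on the exonic length of GENCODE M21, which held 53360 of the 53465 identifiers. Intervals of single counts and shares cover counting error only. Log2 CPM used a prior count of 2, and 3 counts or fewer were taken as the floor.

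The members and lists were chosen with earlier results of these data known. Beside all members, the genes named are those past the threshold in a list, the 2 highest and 2 lowest of each list by log2 fold change among genes with 10 or more counts in each library, and the 3 most like Acot1. Low genes and family members of the members, Pparg, Ppara, Dvl2 and the neighbours of Acot1 are named outside this rule, after their values were seen. Where a symbol had several identifiers (Hacl1 and Itgam), the one with more counts was used. The results of 2 genes of the lists are not reported here, though the counts and medians include them.

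The test was tried on simulated data drawn from the real means and library sizes. It recovered 54.1% of 196 genes changed 1.5-fold, 72.8% of 195 changed 2-fold and 97.9% of 195 changed 4-fold. The changed genes were drawn at random from all tested genes, so recovery at counts as low as those of Acot1 is not known. Alternatives were other scalings and filters, DESeq2 1.42.0, the newer fit and the robust fit of edgeR, a loess correction for length (span 0.4), a replicate block, the longest transcript as gene length and leaving out each library. Leaving out a library left its group without a replicate, so the spread came from the other group alone. Calls from those fits show only how unstable the calls are. Other tools were R 4.3.3, limma 3.58.1, Python 3.11.15, NumPy 2.4.6, pandas 2.3.3, Biopython 1.88 and matplotlib 3.10.9. The qRT-PCR and microarray values of the study were not used, nor were the reads.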

Additional observations from a re-analysis of the deposited data

How the results depend on the processing

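The log2 fold change of Acot1 lay between 0.97 and 1.02 under 10 alternatives and between 0.96 (without EGCG replicate 1) and 1.05 (without EGCG replicate 2) with 1 library left out. As description only, since it was chosen on this contrast, it passed the threshold with scaling by library size only and with the robust fit. Acot2 ranged from 0.33 to 0.38, and from 0.35 to 0.39 with a library left out. Cpt1a, Acadl, Acadvl and Hadha changed sign with some library left out (-0.08 to 0.08, -0.0069 to 0.23, -0.03 to 0.09 and -0.09 to 0.03), while Acadm ranged from 0.05 to 0.29, Plin2 from -0.16 to -0.03 and Ppard from -0.24 to -0.03. Cpt1a (0.08) and Hadha (0.06) also turned positive with length correction, Cpt1a (0.00047) with upper-quartile scaling, and Acadvl (-0.01) negative with library size only.

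Genes called higher (2) were 16 with library size only, 1 with a minimum of 1 CPM, 14 with DESeq2, 6 with the newer fit, 14 with the robust fit and 5 to 119 with a library left out. Genes called lower (20) were 135, 9 with upper-quartile scaling, 50 with DESeq2, 49 with the robust fit, 1 with length correction and 72 to 235 with a library left out. Without a filter 0 of 27490 genes were called in edgeR's test, and 1795 had an unadjusted p under 0.05. The deviations of control replicate 1 and EGCG replicate 1 from their group means had a correlation of 0.0336 over the tested genes. Counting noise pulls such a value toward 0, so it cannot decide whether the replicates were paired. With a replicate block, 6 genes were called higher and 24 lower.

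The members' median was 0.0796 with length correction and -0.0069 to 0.0789 with a library left out. Medians with length correction were 0.087 (peroxisomal), 0.061 (activation and binding), -0.026 (PPAR receptors and cofactors), 0.094 (lipid droplet) and 0.10 (AMPK). With library size only all were lower: -0.012 (members, so turned negative), 0.017 (mitochondrial), 0.015 (peroxisomal), 0.011 (thioesterases), -0.011 (activation and binding), -0.18 (receptors and cofactors), -0.0065 (PPAR targets), 0.019 (lipid droplet) and 0.029 (AMPK). With a library left out they ran from 0.0096 to 0.10 (mitochondrial), 0.0093 to 0.15 (thioesterases), -0.0016 to 0.041 (activation and binding), -0.15 to -0.054 (receptors and cofactors), 0.017 to 0.10 (lipid droplet) and 0.047 to 0.097 (AMPK). Calls among receptors and cofactors (1) were 2 with library size only, 0 without a filter, 0 with length correction and 1 to 3 with a library left out, and among PPAR targets 0 to 1. The longest transcript changed the rank of 2 members. Among the genes of the lists, Acad9 (0.0081) and Ldah (0.018) turned positive with length correction. With a library left out, signs turned for Acadsb (-0.19 to 0.0096), Acot13 (-0.39 to 0.23), Fabp4 (-0.54 to 0.011), Fitm2 (-0.42 to 0.18), Pccb (-0.033 to 0.47) and Them6 (-0.022 to 1.00). The cause of these shifts was not tested. Depth limits Pdk4, Ppara and the remaining cluster genes, at a few reads each.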
